A study of Mus musculus with 33 samples.

Results

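The genes described here are the ligands and receptors that steer growing axons, taken from the frontal cortex expression table by their symbols. A row was a member if it named an ephrin (Efna or Efnb), an Eph receptor (Epha or Ephb), a Slit, a Robo, a netrin (Ntn), a neuropilin (Nrp), an Unc5 receptor, a semaphorin of classes 3 to 7 or a plexin. 67 of its 21565 genes matched, and the 65 with a mean of at least 1 CPM (reads scaled to the library total) were kept, 33 ligands and 32 receptors. *Epha2* (mean 1.19 CPM) and *Sema3b* (1.75 CPM) lay just above that limit, and *Epha1* (0.188 CPM) and *Efna4* (0.149 CPM) were left out by it.

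RNA from the frontal cortex of 33 adult male mice on a C57BL/6J background was sequenced, 1 library per mouse, all taken 6 hr after lights on. WT mice were free to sleep (CS, n = 6), were kept awake for all 6 hr (SD, sleep deprivation, n = 7), or were deprived for 4 hr and then given 2 hr of recovery sleep (RS, n = 7). *Mef2c* f/f mice, in which exon 11 of the gene for the transcription factor MEF2C lies between loxP sites, were compared in CS (n = 4) and SD (n = 3), and so were Mef2c-cKO mice, which carry *Mef2c* f/f together with Camk2a-Cre (CS, n = 3, and SD, n = 3). Camk2a-Cre acts in excitatory neurons of the forebrain, so other cells of the tissue keep at least 1 intact allele; per the study's methods, some of these mice carried 1 allele already recombined in every cell, through the germ line. There was no RS group in the *Mef2c* f/f and Mef2c-cKO mice, and both genotypes carry the loxP sites.

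Ephrins are membrane-held ligands that bind Eph receptor tyrosine kinases on the next cell, and signals pass in both directions. Slits are secreted and act through Robo receptors, netrins are secreted and can repel through Unc5 receptors, and semaphorins act through plexins, which for most class 3 members are paired with a neuropilin. These families are known for guiding axons during development, and in the adult cortex several of them, among them the EphB receptors, class 3 semaphorins and *Epha4*, are known to act at synapses and dendritic spines or between neurons and glia.

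The letters before the start of transcription are shown for *Efna5* and *Slit2*, which were called below from WT CS to SD and between *Mef2c* f/f and Mef2c-cKO mice in both sleep conditions, and for the only members that held one of the motifs searched. The motifs were the MEF2 site and the cyclic AMP response element CRE (TGACGTCA), each read on both strands in the 250 bases before each RefSeq gene start (GRCm38.p6). Of the 65 members 56 had an entry, with 72 starts in all. A MEF2 site stood before 1 of these 72 starts (*Sema6d*) and before 2.92% of all 32851 starts, and a CRE before 1 of 72 (*Epha2*) and 1.55% of all. Capitals mark the motif, and *Efna5* and *Slit2* held neither in this window.
Efna5 (chr17:62881318-62881567, minus strand): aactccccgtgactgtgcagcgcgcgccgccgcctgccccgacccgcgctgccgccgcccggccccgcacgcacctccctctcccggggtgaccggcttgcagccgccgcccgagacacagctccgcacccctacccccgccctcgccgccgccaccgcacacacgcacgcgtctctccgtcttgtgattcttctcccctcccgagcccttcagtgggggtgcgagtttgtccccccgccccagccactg
Slit2 (chr5:47982905-47983154, plus strand): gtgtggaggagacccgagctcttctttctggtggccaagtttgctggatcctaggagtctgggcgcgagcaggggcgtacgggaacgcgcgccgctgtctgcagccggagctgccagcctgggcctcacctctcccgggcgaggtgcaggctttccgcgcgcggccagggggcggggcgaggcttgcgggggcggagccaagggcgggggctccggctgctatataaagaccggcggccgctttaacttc
Sema6d (chr2:124089719-124089968, plus strand): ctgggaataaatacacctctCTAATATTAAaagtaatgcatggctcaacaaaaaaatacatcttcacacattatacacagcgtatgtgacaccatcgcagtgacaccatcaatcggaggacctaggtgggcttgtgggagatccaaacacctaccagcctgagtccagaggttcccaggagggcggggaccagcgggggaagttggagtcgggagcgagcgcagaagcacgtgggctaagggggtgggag
Epha2 (chr4:141300971-141301220, plus strand): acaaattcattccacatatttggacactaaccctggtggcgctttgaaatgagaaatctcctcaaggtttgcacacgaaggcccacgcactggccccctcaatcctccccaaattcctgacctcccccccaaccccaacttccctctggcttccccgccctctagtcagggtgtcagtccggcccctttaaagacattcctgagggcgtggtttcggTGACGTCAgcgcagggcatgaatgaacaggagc
The GC content of these 4 windows was 74.8% for *Efna5*, 69.6% for *Slit2*, 52.4% for *Sema6d* and 55.6% for *Epha2*. The median was 64.4% over the members' 72 windows and 52.4% over all windows.

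Libraries held 18935045 to 249046089 reads, and group medians lay between 29639972 reads in Mef2c-cKO SD and 127814796 in WT RS. The member with the fewest reads was *Epha2*, with 13 to 273 reads per library, so even the lowest members were above the limit of 3 reads that a count of 0 would allow. Values below are CPM rescaled by median-of-ratios factors, and changes are log2 fold changes with their standard error (SE), called a differentially expressed gene (DEG) where the adjusted p did not exceed 0.05 and the change was 0.3 or more in size. The listed genes of the WT libraries summed to 925580.3 to 985958 CPM and those of every *Mef2c* f/f and Mef2c-cKO library to 1000000, so levels are not compared between WT and the other mice. All 10 cortical excitatory neuron markers reached 1 CPM in all 33 libraries. *Mef2c*, the targeted gene, had 1147 ± 67.3 CPM in *Mef2c* f/f CS, 1263 ± 136 in *Mef2c* f/f SD, 1431 ± 415 in Mef2c-cKO CS and 1311 ± 192 in Mef2c-cKO SD (standard deviation, n = 4, 3, 3 and 3). A count over the whole gene mostly comes from exons outside the deleted part, so it does not check the genotype labels. In the WT groups CS, SD and RS *Mef2c* had 1431 ± 323, 815 ± 112 and 924 ± 194 CPM (n = 6, 7 and 7).

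Per length of annotated exons, the levels of the members in WT CS spanned from 0.144 ± 0.0543 CPM per kb for *Epha2* to 144 ± 39.6 for *Epha6* (mean ± standard deviation, n = 6). *Epha6* stood above the next member by more than the larger standard deviation of the pair. Behind it came *Unc5d* (69.5 ± 9.44 CPM per kb), *Efna5* (63.2 ± 14.6), *Robo2* (56.4 ± 15.9) and *Slit3* (52.8 ± 16), each within the larger standard deviation of its neighbour in this order. In 60 of the 64 pairs of neighbours in the order of levels, the gap was smaller than the larger standard deviation. Some families held members far apart, such as *Efna5* and *Efna1* (1.27 ± 0.267 CPM per kb), and members close together on this measure, such as *Slit1* (8.18 ± 1.58) and *Slit2* (8.01 ± 2.56) or *Epha5* (33.5 ± 11.1) and *Epha7* (32.3 ± 7.93). The order depends on the length used. *Slit2* had 25433 bases of annotated exons and 9960 in its longest transcript, and *Slit1* 5921 and 5673. *Epha5* had 16739 and 7328, and *Epha7* 9884 and 6746.

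**Figure D1:**
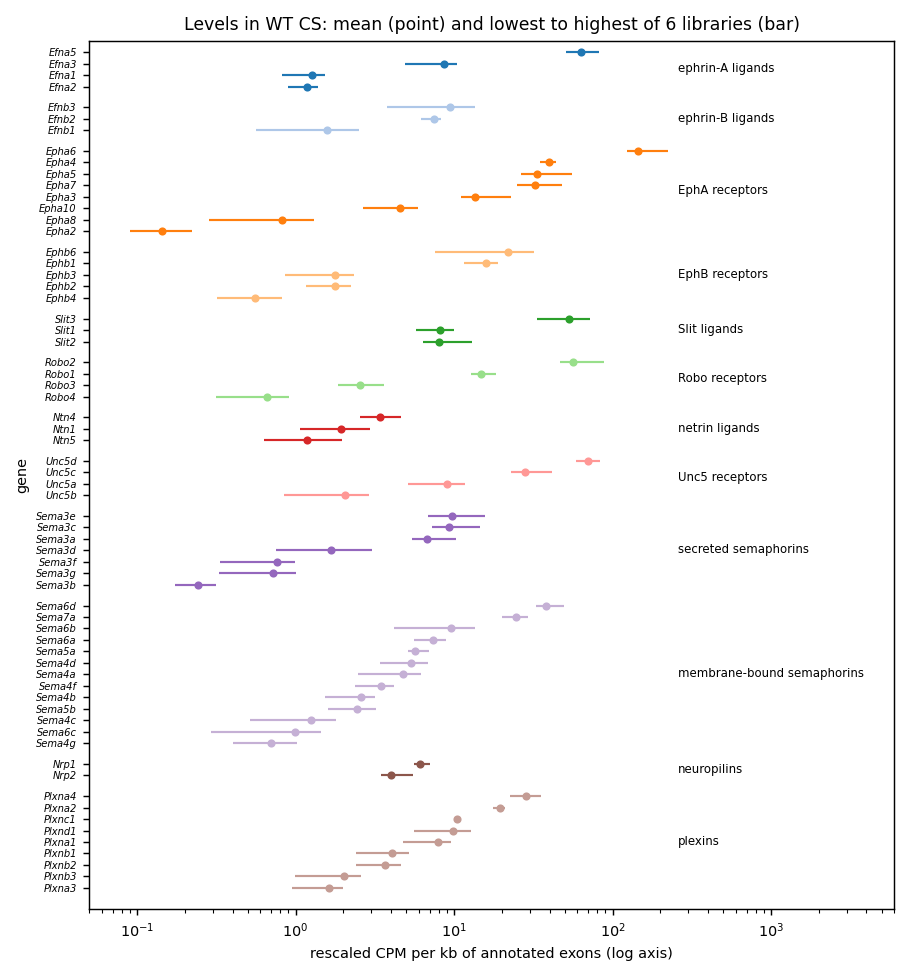
Mean level of each member in WT CS in rescaled CPM per kb of annotated exons, on a log axis, grouped by family. Points are means of 6 libraries and bars run from the lowest to the highest library. *Epha6* is the highest member and *Epha2* the lowest, and most neighbours in the order overlap.

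To ask which guidance genes respond to sleep loss, WT SD was compared with WT CS. Of 65 members tested, 20 were higher and 18 lower in SD by limma, while 45.1% of all 12913 genes tested were called (24.6% higher and 20.5% lower). The median log2 fold change was 0.31 over the members and 0.04 over all genes. The groups of libraries did not overlap for 15 members, 2 of them higher and 13 lower, against 15.1% of all genes (4.68% higher and 10.4% lower). *Epha2*, *Epha8* and *Sema3b* passed the filter on low values through the SD libraries alone, and *Sema3b* is 1 of the 2 members higher without overlap. Calls ran in both directions within most families: 5 of 8 EphA receptors were lower and 1 higher, both called ephrin-B ligands of 3 were higher, 2 of 4 Robo receptors were lower and none higher, and 3 secreted semaphorins of 7 moved in each direction. Of 13 membrane-bound semaphorins 6 were higher and 3 lower, of 9 plexins 3 were higher and 1 lower, and neither neuropilin was called.

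**Figure D2:**
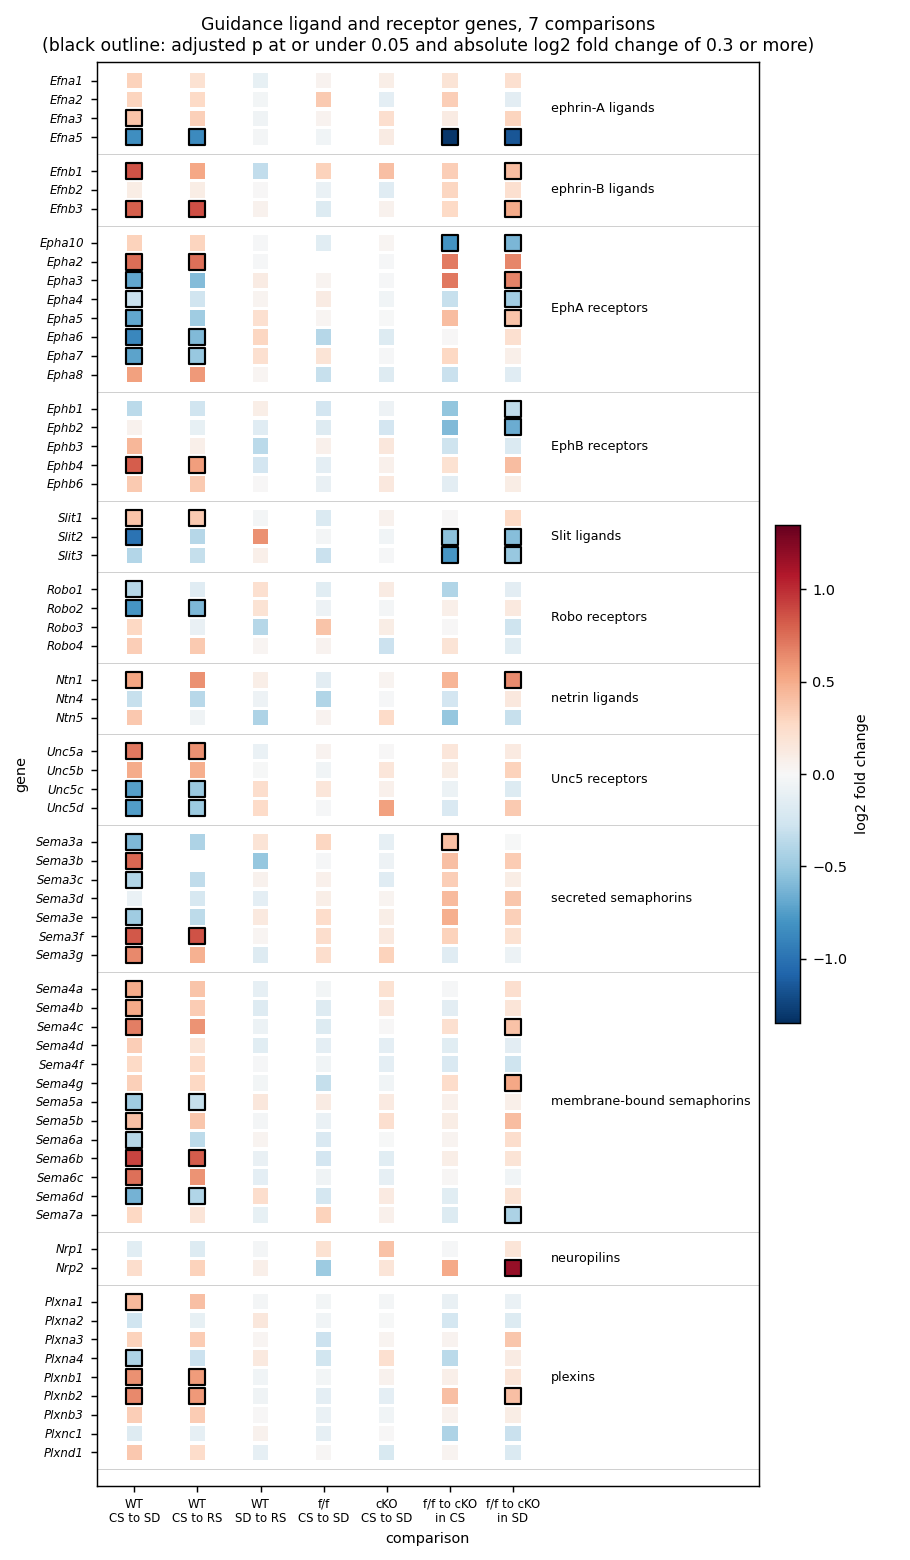
Log2 fold change of the 65 members (rows, by family) in 7 comparisons (columns), with blue for lower and red for higher in the second group and a black outline for DEGs. The WT columns CS to SD and CS to RS hold 38 and 17 outlined members, the columns for *Mef2c* f/f to Mef2c-cKO 5 in CS and 17 in SD, and the other 3 none. A blank cell is a member that did not pass the filter.

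Among the ligands of Eph receptors, *Efna5* fell. Its lowest, median and highest levels were 206, 222 and 330.5 CPM in CS and 102, 135 and 205 in SD, with a log2 fold change of -0.83 ± 0.17 (adjusted p = 0.00292). No SD library reached the lowest CS library, and within CS the 2 highest libraries stood apart from the other 4. The ephrin-B ligands *Efnb1* (CS 1.93, 5.17 and 8.67 CPM, SD 7.04, 10.1 and 11.1) and *Efnb3* (CS 12.1, 32.7 and 43.1, SD 40.2, 45.9 and 67.4) rose, by 0.86 ± 0.25 (adjusted p = 0.0138) and 0.81 ± 0.23 (adjusted p = 0.0132). For both the groups overlapped, since some CS libraries reached the range of SD.

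Of the EphA receptors, which mainly bind the ephrin-A ligands, most that were called were lower in SD. *Epha6*, the member with the highest level per kb, had lowest, median and highest levels of 652, 681 and 1187 CPM in CS and 308, 419.7 and 461 in SD (-0.88 ± 0.14, adjusted p = 0.00079). *Epha7* had 247, 304 and 471 CPM in CS and 169, 198 and 213 in SD (-0.72 ± 0.13, adjusted p = 0.00119). *Epha3* had 96.2, 102 and 199 CPM in CS and 57, 73.3 and 83.8 in SD (-0.70 ± 0.16, adjusted p = 0.00518). In all 3 the groups did not overlap, and 1 CS library, replicate 2, lay far above the others. *Epha5* (-0.70 ± 0.15) and *Epha4* (-0.31 ± 0.08), a receptor for ephrins of both classes, also fell, and *Epha2* rose from 0.421, 0.586 and 1.03 CPM in CS to 0.992, 1.44 and 2.24 in SD (0.76 ± 0.15, adjusted p = 0.00265). *Epha2* was tested only because its SD libraries passed the filter on low values, so its rise is no independent support. Of the EphB receptors *Ephb4*, known from blood vessels, was called, with 1.48, 2.42 and 3.78 CPM in CS and 3.56, 5.09 and 5.78 in SD (0.82 ± 0.17, adjusted p = 0.00248) and an overlap of the groups, as for *Epha2*. *Ephb1*, *Ephb2*, *Ephb3* and *Ephb6* did not pass, with -0.36, 0.06, 0.45 and 0.35.

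The secreted ligand *Slit2* had the lowest p-value of the members and the largest fall in this comparison. Its levels were 163, 177 and 332 CPM in CS and 87.3, 98.6 and 111 in SD (-0.998 ± 0.14, adjusted p = 0.000513). The SD libraries lay close together and all below the CS libraries. *Slit1* rose by 0.38 ± 0.12, and *Slit3* had -0.39 and did not pass (adjusted p = 0.177). Of their receptors *Robo2* fell, with 787, 860.4 and 1490.1 CPM in CS and 438, 555 and 623 in SD and no overlap (-0.80 ± 0.15, adjusted p = 0.00146), and *Robo1* fell by less (-0.38 ± 0.12). *Robo3* (0.28) and *Robo4* (0.33), an endothelial member, did not pass. Among netrins *Ntn1* rose (0.54 ± 0.21, adjusted p = 0.0408), and of the netrin receptors *Unc5d* and *Unc5c* fell without overlap. *Unc5d* had 545, 635 and 773 CPM in CS and 325, 338 and 511 in SD (-0.75 ± 0.13, adjusted p = 0.00109). *Unc5c* had 439, 498 and 792 CPM in CS and 268, 302 and 373 in SD (-0.74 ± 0.13, adjusted p = 0.00113). *Unc5a* moved the other way and rose by 0.71 ± 0.16.

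Semaphorins were called in both directions among the secreted and the membrane-bound members. Of the secreted ones, *Sema3b* rose from 0.832, 1.15 and 1.49 CPM in CS to 1.76, 2.18 and 3.11 in SD without overlap (0.78 ± 0.13, adjusted p = 0.000958). It was tested only because its SD libraries passed the filter on low values, so its rise is no independent support. *Sema3f*, a ligand of *Nrp2*, rose from 1.73, 4.4 and 5.12 to 4.96, 7.9 and 8.76 CPM (0.83 ± 0.21, adjusted p = 0.00741). *Sema3a*, a ligand of *Nrp1*, fell (-0.60 ± 0.14) without overlap, while *Nrp1* (-0.16) and *Nrp2* (0.23) did not pass. Of the membrane-bound ones *Sema6b* rose most, from 16.5, 40.2 and 53.7 CPM in CS to 49.6, 70.9 and 82.8 in SD (0.91 ± 0.24, adjusted p = 0.00816), followed by *Sema6c* (0.74 ± 0.27) and *Sema4c* (0.69 ± 0.21), while *Sema6d* (-0.64 ± 0.12), *Sema5a* (-0.48 ± 0.09) and *Sema6a* (-0.39 ± 0.13) fell. Among their plexin receptors *Plxnb2* rose from 18.7, 29 and 35.9 CPM to 39.1, 46 and 49.1 without overlap (0.65 ± 0.13, adjusted p = 0.00205). *Plxnb1* (0.62 ± 0.15) and *Plxna1* (0.44 ± 0.14) also rose and *Plxna4* (-0.41 ± 0.15) fell. Of the 38 calls, 27 were made in every run that left out 1 library, and the others were *Efna3*, *Epha4*, *Ntn1*, *Plxna4*, *Sema3c*, *Sema3e*, *Sema4a*, *Sema5b*, *Sema6a*, *Sema6c* and *Slit1*. With CPM as deposited the split was 38 higher and 11 lower, in a table whose median log2 fold change was 0.30. Over all 12913 genes tested that setting called 6106 higher and 801 lower.

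The direction of change within families ran with base composition. The 20 members called higher had transcripts of 56.1 to 63.5% GC and the 18 called lower 40.1 to 51.6%, so the ranges did not meet. Across the 65 members the log2 fold change from WT CS to SD had a Pearson r of 0.846 and a Spearman rho of 0.796 with transcript GC content, and across all 12442 annotated genes the rho was 0.721. These correlations are across genes of the same libraries, which are not independent replicates. The same trend separated libraries within groups: the rho of a library's deviations with GC content was -0.743 to -0.109 in WT CS, 0.0219 to 0.769 in SD and -0.265 to 0.677 in RS. After a correction of each library for its dependence on GC content and transcript length, 17 members were called, 3 higher (*Ephb4*, *Plxnb1* and *Sema3f*) and 14 lower. Over all genes the corrected fit called 2552 of 12442, 1157 higher and 1395 lower. Of the 17 members, 14 had been called in the same direction before, and the new ones were *Slit3* (-0.75 on the log2 scale), *Ephb1* (-0.53) and *Ntn4* (-0.43). *Epha6* (-0.84), *Slit2* (-0.70), *Efna5* (-0.65), *Sema6d* (-0.56), *Unc5d* (-0.41), *Robo2* (-0.40) and *Unc5c* (-0.39) were still called lower. *Efna3*, *Sema5b* and *Slit1*, called higher before, had -0.0073, -0.13 and -0.06 after it.

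**Figure D3:**
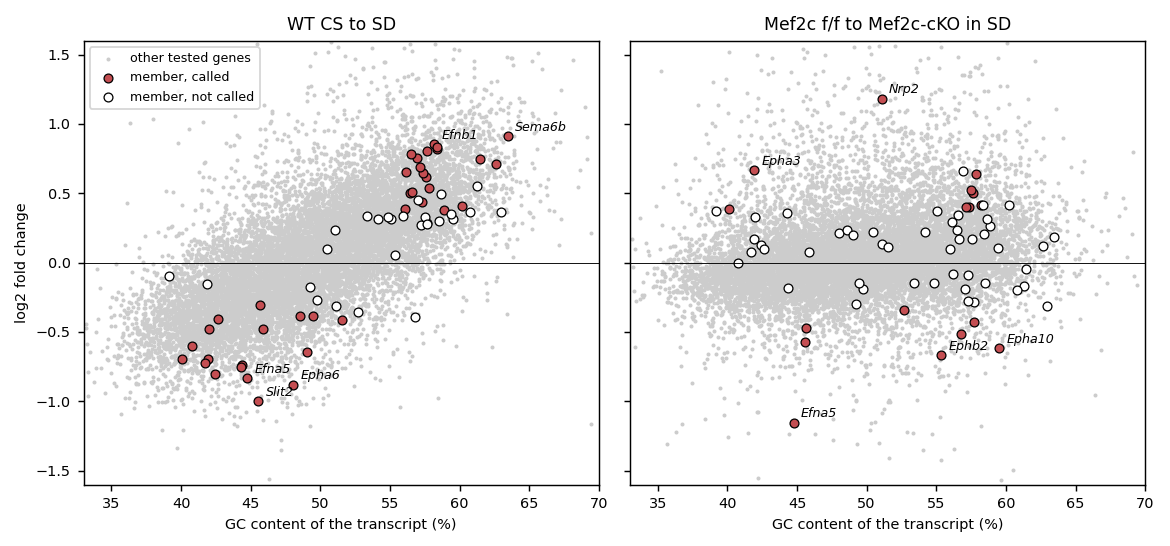
Log2 fold change against the GC content of the transcript, in percent, for WT CS to SD (left) and *Mef2c* f/f to Mef2c-cKO in SD (right). Each circle is a member, filled if it is a DEG, and grey dots are all annotated genes tested; genes beyond 1.6 in either direction or outside 33 to 70% GC are not drawn. On the left the members rise with GC content like the other genes (rho 0.796 over 65 members), and on the right they do not (rho -0.0035).

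Other cell types moved with the comparison too. All 7 oligodendrocyte precursor markers were tested and 6 rose, with a summed level of 89.3 to 118 CPM in WT CS and 127 to 164 in SD. Of 10 meningeal fibroblast markers 9 were tested and 7 rose, and their sum was 12.4 to 83.3 CPM in CS and 89.9 to 135 in SD. The summed choroid plexus markers reached 186 CPM in 1 CS library and 6.63 to 11.8 in SD. The part of these cells in the members' changes was not tested, and in whole tissue fewer cells of a type and less RNA per cell cannot be told apart. With 6 WT libraries left out (3 CS, 1 SD and 2 RS, whose listed genes summed to under 960000 CPM, chosen after seeing the data), 20 members were called, 7 higher and 13 lower, and *Efna5* (-1.01) and *Slit2* (-0.75) were among them. Over all genes 2300 of 12959 were called in that setting, 900 higher and 1400 lower.

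After 2 hr of recovery sleep, 9 members were higher and 8 lower than in CS, of 64 tested, with 17.5% of all genes called (9.28% higher and 8.22% lower). The median log2 fold change was 0.20 over the members and 0.02 over all genes. All 17 had also been called from CS to SD in the same direction, a comparison with the same CS libraries. *Efna5* again fell, with lowest, median and highest levels of 206, 222 and 330.5 CPM in CS and 99.4, 128 and 196 in RS (-0.86 ± 0.17, adjusted p = 0.0329). It was the only member called lower whose groups did not overlap, as 4 called higher did not, against 3.72% of all genes (1.7% higher and 2.02% lower). *Robo2* (RS 433, 568.2 and 953 CPM, -0.61 ± 0.19), *Epha6* (RS 316, 481 and 799, -0.59 ± 0.20), *Epha7* (RS 174, 204 and 309, -0.51 ± 0.15), *Unc5c* (RS 269.5, 346 and 542, -0.50 ± 0.16) and *Unc5d* (RS 315, 446 and 586, -0.49 ± 0.14) fell with overlap. *Sema6d* (CS 345, 381 and 523, RS 234, 287 and 369.7, -0.41 ± 0.13) and *Sema5a* (CS 95, 100.4 and 129.5, RS 68.3, 84.4 and 100.2, -0.33 ± 0.10) fell least.

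The members higher in RS without overlap were *Epha2* (RS 1.14, 1.39 and 1.82 CPM, 0.75 ± 0.14), which passed the filter on low values through the RS libraries alone, *Unc5a* (CS 21.4, 38.8 and 49.1, RS 49.4, 53.6 and 70.3, 0.62 ± 0.16), *Plxnb2* (RS 36.9, 41.2 and 49.9, 0.58 ± 0.13) and *Plxnb1* (CS 23, 37.7 and 50.1, RS 50.6, 54.6 and 66.2, 0.57 ± 0.15), so 3 of the 4 are receptors of netrins or semaphorins. *Efnb3* (RS 36.4, 55.6 and 65.5, 0.87 ± 0.24), *Sema3f* (RS 4.99, 7.02 and 9.93, 0.86 ± 0.22), *Sema6b* (RS 47.2, 61.8 and 86.6, 0.81 ± 0.25), *Ephb4* (RS 3.21, 3.59 and 4.96, 0.57 ± 0.17) and *Slit1* (0.35 ± 0.12) rose with overlap. The adjusted p-values of these 17 calls lay between 0.0329 (*Efna5*) and 0.0497 (*Slit1*). Leaving out CS replicate 3, or any of RS replicates 3, 4, 5, 6 and 12, left no call, and 2 were left without CS replicate 1 and 3 without CS replicate 2. Over all genes the runs with no member called had 0 calls, or 3 without RS replicate 4. Without CS replicates 1 and 2 there were 223 and 98 calls over all genes. Corrected for GC content and length, *Efna5* (-0.71), *Slit3* (-0.62) and *Sema3f* (0.44) were called, and without the 6 WT libraries of low listed sum *Efna5* alone (-1.14). Of all genes, 629 of 12281 were called after that correction and 96 of 12840 without the 6 libraries. On the deposited CPM scale the calls were 13 higher and 3 lower, where the median of all genes was 0.20. Of all 12752 genes tested, 2350 were called higher and 315 lower on that scale.

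Directly between WT SD and RS no member of 65 was called by limma, with 0.0232% of all genes called. Of the members 6 had an unadjusted p of at most 0.05, edgeR called 0 and DESeq2 2. Over all 12921 genes tested edgeR called 3 and DESeq2 54. *Slit2* had the smallest p, with 87.3, 98.6 and 111 CPM in SD and 105, 147 and 213 in RS (0.62 ± 0.13, adjusted p = 0.171). *Ephb3* had 13, 15.9 and 17.2 CPM in SD and 10.2, 11.5 and 13.9 in RS (-0.36 ± 0.09, adjusted p = 0.292), and *Sema3b* 1.76, 2.18 and 3.11 and 0.75, 1.4 and 2.27 (-0.52 ± 0.16, adjusted p = 0.507), which passed the filter on low values through the SD libraries alone. In each of them some RS libraries lay within the range of SD. After correction for GC content and length *Slit2* was called (0.55, adjusted p = 0.0277), with 7 of all 12452 genes called.

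The response to SD was then measured in *Mef2c* f/f and in Mef2c-cKO mice. In *Mef2c* f/f mice no member of 64 tested was called by limma, with 0.0403% of all genes called. Of the members 7 had an unadjusted p of at most 0.05, edgeR called 0 and DESeq2 1. Over all 12410 genes tested edgeR called 9 and DESeq2 467. The smallest p-values were those of *Sema3a* (CS 54.3, 54.6, 59.5 and 59.8 CPM, SD 67.2, 67.9 and 74.2, 0.29 ± 0.08, adjusted p = 0.141), *Sema7a* (CS 86.8, 96.6, 98.5 and 105, SD 112, 118 and 131, 0.31 ± 0.09, adjusted p = 0.153) and *Robo3* (CS 16.8, 20.5, 22.3 and 24, SD 25.7, 26 and 30.3, 0.39 ± 0.12, adjusted p = 0.186). All 3 were higher in every SD library than in any CS library, and groups did not overlap for 6 members that were higher and 2 that were lower, against 17.4% of all genes (8.53% higher and 8.9% lower). The summed levels of 4 marker lists were higher in SD without overlap: 10 oligodendrocyte markers had 2056 to 2429 CPM in CS and 2769 to 3156 in SD, 7 precursor markers 89.6 to 102 and 115 to 125, 10 excitatory neuron markers 2321 to 2710.3 and 2770.4 to 2928, and 10 astrocyte markers 4471 to 4888 and 4893 to 5198. Their part in the members' values was not tested. *Efna5* had 219.6, 224, 226 and 246 CPM in CS and 209.9, 211 and 243 in SD, a difference of -0.05 on the log2 scale with a 95% interval of -0.23 to 0.13. *Slit2* had -0.03, with an interval of -0.30 to 0.24.

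In Mef2c-cKO mice no member of 65 was called by limma from CS to SD, with 0.0234% of all genes called. Of the members 2 had an unadjusted p of at most 0.05, and edgeR and DESeq2 called 0. Over all 12810 genes tested edgeR called 3 and DESeq2 25. *Unc5d* had 315, 366 and 390.4 CPM in CS and 431, 573 and 577 in SD (0.55 ± 0.14, adjusted p = 0.998). *Efnb1* had 7.19, 7.26 and 7.71 CPM in CS and 8.94, 10.2 and 10.7 in SD (0.40 ± 0.11, adjusted p = 0.998). Both were higher in every SD library, as were 5 members in all, while groups did not overlap for 9.05% of all genes (4.49% higher and 4.56% lower). *Epha6* was next with 315, 331 and 339 CPM in CS and 268, 282 and 321 in SD (-0.18 ± 0.09, adjusted p = 0.998).

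To see what the loss of MEF2C in excitatory neurons goes with, *Mef2c* f/f and Mef2c-cKO mice were compared within each sleep condition, in libraries that the 2 comparisons do not share. In CS 1 member was higher and 4 lower in Mef2c-cKO of 65 tested, where 7.67% of all genes were called (3.17% higher and 4.5% lower). The members' median log2 fold change was 0.04 and that of all genes 0.03. In SD 9 were higher and 8 lower, where 15.1% of all genes were called (9.1% higher and 5.99% lower), with medians of 0.13 and 0.01. With CPM as deposited the calls in CS were 4 higher and 3 lower (882 and 346 over all genes, with a median of 0.13). In SD they were 14 higher and 7 lower (1694 and 492 over all genes, with a median of 0.09). Groups did not overlap for 14 members in CS (7 higher and 7 lower), against 26.9% of all genes (13.4% and 13.5%), and for 29 in SD (17 and 12), against 40.3% (21.6% and 18.7%). *Efna5*, *Epha10*, *Slit2* and *Slit3* were called in both conditions, all lower in Mef2c-cKO. They make up 80.0% of the calls in CS and 23.5% of those in SD. The same overlap was not computed over all genes, so whether it is particular to the members was not tested.

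*Efna5* had the largest change among the members in both conditions apart from *Nrp2* in SD. In CS its levels were 219.6, 224, 226 and 246 CPM in *Mef2c* f/f and 74.2, 92.1 and 112 in Mef2c-cKO (-1.32 ± 0.13, adjusted p = 0.00177). In SD they were 209.9, 211 and 243 and 84.8, 105 and 109 CPM (-1.15 ± 0.11, adjusted p = 0.00056). Every Mef2c-cKO library was thus well below every *Mef2c* f/f library of the same condition. *Slit3* had 197, 231, 269.8 and 314 CPM in *Mef2c* f/f CS and 132, 134 and 164 in Mef2c-cKO CS (-0.80 ± 0.16, adjusted p = 0.022). In SD it had 181, 199.7 and 227 and 132, 139.9 and 152 CPM (-0.51 ± 0.09, adjusted p = 0.0101). *Slit2* had 105, 105, 124 and 144 CPM in *Mef2c* f/f CS and 73.1, 75.8 and 93.7 in Mef2c-cKO CS (-0.55 ± 0.14, adjusted p = 0.0435), and 109, 111 and 129 and 72.5, 76.8 and 84.9 in SD (-0.57 ± 0.09, adjusted p = 0.00513). The other Slit, *Slit1*, had 0.0049 in CS and 0.27 in SD and was not called, and no Robo receptor was. *Epha10*, an Eph receptor without kinase activity, had 37.6, 38.2, 43.1 and 48.9 CPM in *Mef2c* f/f CS and 19.6, 23.5 and 28.8 in Mef2c-cKO CS (-0.80 ± 0.14, adjusted p = 0.017), and 34, 37.1 and 41.4 and 20.3, 24.6 and 28.2 in SD (-0.62 ± 0.13, adjusted p = 0.0142).

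**Figure D4:**
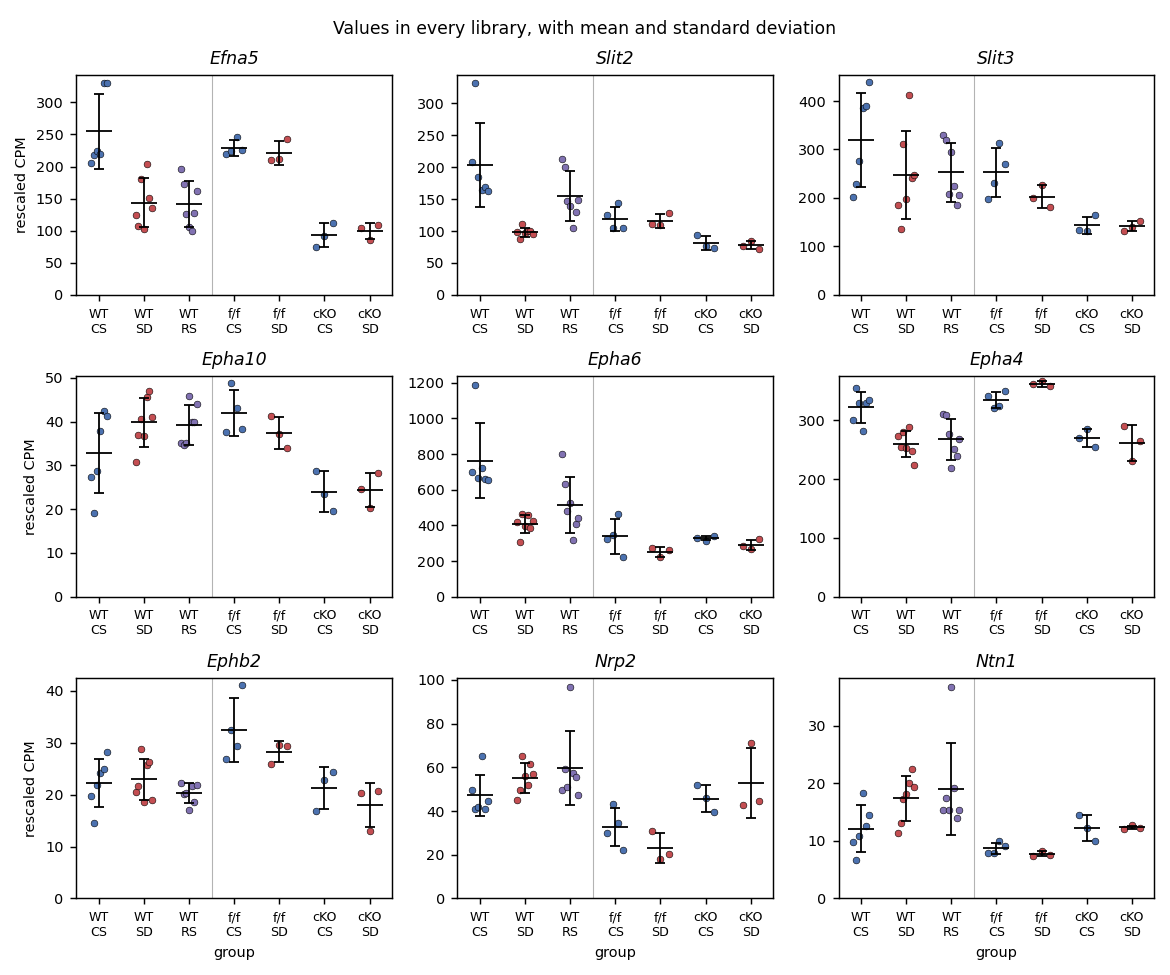
Rescaled CPM of 9 members in every library of the 7 groups (CS blue, SD red, RS purple), with the mean (line) and standard deviation (bars) of each group; every axis starts at 0. *Efna5*, *Slit2*, *Slit3* and *Epha10* lie lower in both Mef2c-cKO groups than in the *Mef2c* f/f groups, and *Nrp2* and *Ntn1* lie higher in Mef2c-cKO SD than in *Mef2c* f/f SD.

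In CS the fifth call was *Sema3a*, with 54.3, 54.6, 59.5 and 59.8 CPM in *Mef2c* f/f and 70.3, 76.6 and 80.8 in Mef2c-cKO (0.41 ± 0.09, adjusted p = 0.026). In SD its levels were 67.2, 67.9 and 74.2 and 59.3, 68.9 and 82.8 CPM, which overlap (-0.00011). The other receptors called lower in Mef2c-cKO SD were *Ephb2*, *Epha4* and *Ephb1*, which are known from excitatory synapses. *Ephb2* had 26, 29.4 and 29.5 CPM in *Mef2c* f/f and 13, 20.3 and 20.6 in Mef2c-cKO (-0.67 ± 0.17, adjusted p = 0.029). *Epha4* had 358, 361 and 367 and 230.4, 264 and 291 CPM (-0.47 ± 0.09, adjusted p = 0.0104), and *Ephb1* 84.6, 90.0 and 91.2 and 60.7, 73 and 76.4 (-0.34 ± 0.09, adjusted p = 0.036). In CS their log2 fold changes were -0.59, -0.31 and -0.53 with adjusted p-values of 0.0635, 0.0547 and 0.097. *Sema7a*, a membrane-anchored semaphorin that binds *Plxnc1*, had 112, 118 and 131 CPM in *Mef2c* f/f SD and 85.1, 89 and 92.6 in Mef2c-cKO SD (-0.43 ± 0.08, adjusted p = 0.0083), and *Plxnc1* itself had -0.295 (adjusted p = 0.0396), just under the fold threshold.

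Among the members higher in Mef2c-cKO SD, *Nrp2*, the receptor of *Sema3f*, changed most. It had 17.9, 20.2 and 30.9 CPM in *Mef2c* f/f and 42.9, 44.5 and 71 in Mef2c-cKO (1.18 ± 0.24, adjusted p = 0.0137), with 1 Mef2c-cKO library far above the other 2. *Epha3* had 45.7, 46.7 and 49.8 and 67.4, 76.9 and 82.6 CPM (0.66 ± 0.09, adjusted p = 0.00245), and *Ntn1* 7.47, 7.57 and 8.31 and 12.1, 12.2 and 12.7 (0.64 ± 0.09, adjusted p = 0.00336). For all 3 the lowest Mef2c-cKO library lay above the highest *Mef2c* f/f library. The ligands *Efnb3* (32.6, 34.5 and 37.4 against 43.3, 51.7 and 54.5 CPM, 0.51 ± 0.10) and *Efnb1* (6.59, 7.11 and 8.26 against 8.94, 10.2 and 10.7, 0.42 ± 0.12), which bind the EphB receptors, were higher too. *Sema4g* (5.18, 5.69 and 6.07 against 7.36, 8.23 and 9.45 CPM, 0.52 ± 0.12), *Sema4c* (6.76, 7.19 and 7.98 against 9.5, 9.89 and 9.98, 0.40 ± 0.10) and the *Sema4c* receptor *Plxnb2* (25.8, 27.3 and 28.7 against 31.8, 38.6 and 38.6, 0.40 ± 0.09) rose without overlap, as did *Epha5* (0.38 ± 0.09). In CS none of these 9 was called, with log2 fold changes from 0.21 (*Sema4c*) to 0.72 (*Epha3*).

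Over the 65 members the log2 fold changes in CS and in SD had the same sign for 51, with a Pearson r of 0.828 and a Spearman rho of 0.757. These are correlations across genes, given as a description. The agreement over all genes was not computed. With GC content the members' log2 fold changes had a rho of -0.0532 in CS and -0.0035 in SD (0.0165 and 0.241 over all annotated genes), and after correction for GC content and length 7 and 20 were called, with all 5 of the calls in CS and 16 of the 17 in SD kept. Over all genes the corrected fits called 1485 of 12656 in CS and 1906 of 12749 in SD, against 973 and 1927 uncorrected. In SD *Efna5*, *Slit2*, *Slit3*, *Sema7a*, *Epha3* and *Ntn1* were called in every run that left out 1 library, and 7 members were called without *Mef2c* f/f replicate 1 and 9 without *Mef2c* f/f replicate 3 (822 and 948 of all genes). In CS *Efna5* alone was called without *Mef2c* f/f replicate 2 or Mef2c-cKO replicate 7, where 175 and 171 of all genes were called.

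**Figure D5:**
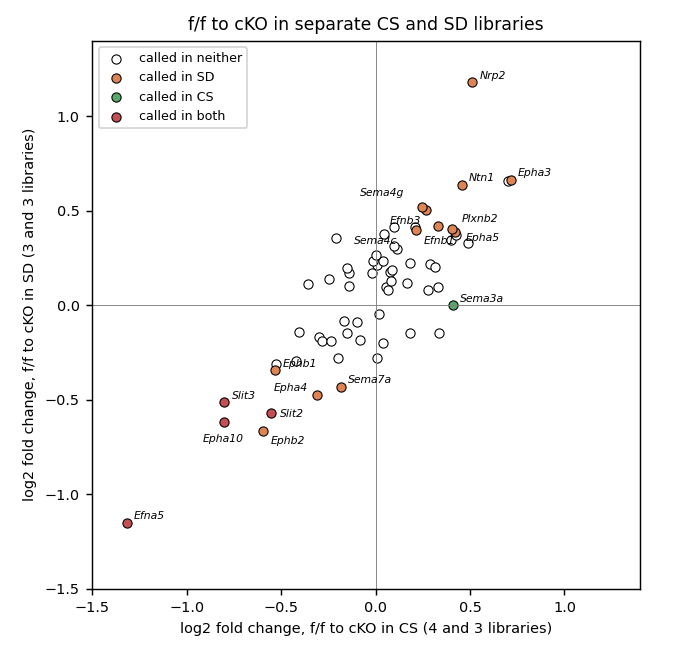
Log2 fold change of the 65 members from *Mef2c* f/f to Mef2c-cKO in CS (horizontal) and in SD (vertical), which share no library. Colours mark DEGs in both, in 1 or in neither condition. *Efna5* lies farthest to the lower left, with *Slit2*, *Slit3* and *Epha10*, and *Nrp2* is at the top.

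Markers of several cell types moved with genotype in SD. The summed level of 10 excitatory neuron markers was 2770 to 2928 CPM in *Mef2c* f/f and 2118 to 2360 in Mef2c-cKO, with 6 of 10 lower. The sum of 10 inhibitory neuron markers was 815 to 915 and 1070.1 to 1133 CPM, with 5 higher and 3 lower, and that of the 10 microglia and macrophage markers measured 193 to 205 and 253 to 280.1 CPM, with 7 higher. The sum of 10 astrocyte markers was 4893 to 5198 and 4523 to 4845 CPM, with 2 higher and 0 lower, and that of the 5 hindbrain and thalamus markers 43.9 to 47.8 and 51.5 to 54.6, with 1 higher of 4 tested. In CS 1 of the 10 excitatory markers was lower, and their sums overlapped (2321 to 2710.3 and 1865 to 2434 CPM). Without overlap in CS, the oligodendrocyte sum was 2056 to 2429 CPM in *Mef2c* f/f and 2542 to 3276 in Mef2c-cKO (4 of 10 higher), and that of hindbrain and thalamus 39.0 to 44.1 and 46.2 to 53.0 (1 of 4 tested lower). The precursor sum was 89.6 to 102 in *Mef2c* f/f and 119.8, 128 and 238 in Mef2c-cKO (2 of 7 higher). That of microglia and macrophages was 176 to 208 and 214, 264 and 658, with 0 of 10 called. Mef2c-cKO replicate 8 held the highest value of both. The choroid plexus sum was 4.03 to 12.5 CPM in *Mef2c* f/f CS and reached 312 in 1 Mef2c-cKO library. The part of these cell types in the members' differences was not tested.

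Whether the effect of SD differed by genotype was tested with interaction terms. Between Mef2c-cKO and *Mef2c* f/f mice no member of 65 was called by limma, with 0.00778% of all genes called. Of the members 3 had an unadjusted p of at most 0.05, and edgeR and DESeq2 called 0. Over all 12860 genes tested edgeR called 1 and DESeq2 59. The smallest p-values were those of *Unc5d* (0.57 ± 0.18, adjusted p = 0.534), *Sema3a* (-0.41 ± 0.15, 0.616) and *Sema4b* (0.31 ± 0.11, 0.616). For *Efna5* the difference between the responses was 0.17 on the log2 scale, with a 95% interval of -0.23 to 0.56, and for *Slit2* -0.02 (-0.40 to 0.37). Between *Mef2c* f/f and WT mice 13 members were called, with 15.1% of all genes called, and with CPM as deposited 22 (5 more positive and 17 more negative in *Mef2c* f/f mice, against 507 and 2919 of all genes, with a median of -0.30). The response was more positive in *Mef2c* f/f mice for *Slit2* (0.97 ± 0.22), *Unc5c* (0.91 ± 0.20), *Epha7* (0.90 ± 0.20), *Sema3a* (0.89 ± 0.21), *Efna5* (0.78 ± 0.26), *Unc5d* (0.74 ± 0.20), *Robo2* (0.73 ± 0.22) and *Epha4* (0.42 ± 0.12). It was more negative for *Sema6b* (-1.16 ± 0.37), *Ephb4* (-0.96 ± 0.26), *Sema3b* (-0.80 ± 0.20), *Plxnb2* (-0.78 ± 0.21) and *Sema4b* (-0.68 ± 0.22), with adjusted p-values from 0.0180 to 0.0462. This difference also ran with GC content over the members (rho -0.782), and *Slit2*, *Unc5c* and *Epha7* were called after the correction, with 279 of 12631 genes called. No member was called without *Mef2c* f/f SD replicate 1 or 3, where 92 and 23 of all genes were called. WT and *Mef2c* f/f libraries differed in depth and in the sum of listed genes, so genotype and the making of the libraries cannot be told apart in it.

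The other genes of these pathways were taken from 2 lists. Of 27 other guidance ligands and receptors 25 were tested from WT CS to SD, with 6 higher and 11 lower and a median log2 fold change of -0.29, where 45.1% of all genes were called and their median was 0.04. *Plxdc2* (-0.74 ± 0.12), the netrin-G gene *Ntng1* (-0.70 ± 0.11) and the netrin receptor *Dscam* (-0.69 ± 0.15) fell most, and *Rgma* (0.55 ± 0.13), *Rtn4rl2* (0.55 ± 0.16) and *Lingo1* (0.54 ± 0.17) rose most. Of 48 cytoplasmic mediators 10 were higher and 11 lower (median -0.07), a share close to that of all genes, with *Rock1* (-0.78 ± 0.17), *Pak3* (-0.61 ± 0.12) and *Rasa1* (-0.57 ± 0.14) lowest and *Gipc1* (0.61 ± 0.20), *Hgs* (0.56 ± 0.13) and *Limk1* (0.49 ± 0.14) highest. From CS to RS, where 17.5% of all genes were called, 1 of the first list was higher (*Rgma*, 0.37) and 7 lower, *Dscam* (-0.55), *Met* (-0.52) and *Ntng1* (-0.52) most. In the second list 2 were higher, *Hgs* (0.55) and *Limk1* (0.47), and 6 lower, with *Srgap2*, which acts under Robo receptors, at -0.46, *Ptk2* at -0.41 and *Pak1* at -0.36. In Mef2c-cKO against *Mef2c* f/f mice, where 7.67% of all genes were called in CS and 15.1% in SD, *Flrt2*, a ligand of Unc5 receptors, was lower in CS (-0.52 ± 0.10) and SD (-0.62 ± 0.09), and *Cxcr4*, a chemokine receptor, was higher in CS (1.67 ± 0.34) and SD (1.81 ± 0.17). The first list had 1 higher and 1 lower call of 26 in CS and 3 and 4 of 27 in SD, where *Met* (-0.85 ± 0.13) and *Flrt1* (-0.45 ± 0.07) were also lower and *Draxin* (0.93 ± 0.20), which binds netrin receptors, and *Ntng2* (0.44 ± 0.10) higher. The second list had 1 higher in CS (*Cfl1*, 0.39) and 3 lower (*Ablim1*, -0.64, *Mical3*, -0.62, and *Farp1*, -0.58). In SD it had 4 higher, led by *Dpysl5* (0.94), *Fes* (0.67) and *Ablim3* (0.64), and 6 lower, led by *Rnd1* (-0.79), *Mical2* (-0.50) and *Gipc1* (-0.44).

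The genes whose levels followed *Slit2* most closely over the 20 WT libraries were *Prr16* (Pearson r of log2 values 0.974), *Cntnap5b* (0.968), *March1* (0.961), *Olfm3* (0.954) and *Grm3* (0.952), out of 12154 genes compared. These libraries share the trend on GC content described above, and the values are a description.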

How the data were processed

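Frontal cortex RNA of 33 mice was measured by strand-specific poly(A) RNA-seq, 1 library each. Per the study's methods, the authors used Trimmomatic for trimming, STAR for alignment to mm10 and HTSeq for counting uniquely mapped reads per gene, and deposited CPM made with edgeR. Each CPM was a whole multiple of 1 read (711645 of 711645 values within 0.01 of a whole read), so reads per library were recovered. CPM were rescaled by median-of-ratios factors over 11570 genes, and log2(CPM + 0.5) was fitted with limma 3.58.1 (R 4.3.3) over the libraries of each comparison, with Benjamini-Hochberg adjustment over all genes with at least 1 CPM in every library of 1 compared group. Fold changes of low genes (*Epha2*, *Sema3b*) are understated on this scale. P-values measure the spread between mice.

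A gene was called where the adjusted p did not exceed 0.05 and the log2 fold change was 0.3 or more in size, and for interactions by the adjusted p alone. On the recovered reads, edgeR 4.0.16 called 5701 genes from WT CS to SD (35 members) and 1623 from CS to RS (13 members), and DESeq2 1.42.0 called 6048 (38 members) and 3420 (24 members). Scripts were checked on simulated data.

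Library values are given for the called members with the largest change, at most 8 in each direction, those without overlap first, or for the 3 with the smallest p where none was called. The members, the marker and pathway lists and these rules were chosen with earlier results of these data known. GC content and length came from GENCODE M21 transcripts of mm10, and were used in a spline correction of each library. Promoter sequences came from RefSeq (GRCm38.p6). Intervals and limits from read counts cover counting error only. Alternatives were the pseudocount (0.1 and 1), the filter (none, and 5 CPM), CPM as deposited, quantile normalization, the GC correction, edgeR, DESeq2, the replicate number as a block and leaving out each library. Leaving out 6 WT libraries with a low listed sum was added after seeing the data.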

Additional observations from a re-analysis of the deposited data

Results flagged for a closer look

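A single library lay far from the rest of its group in 7 of 63 groups of values tested by the gap to its nearest neighbour. Chance gives about 1 in 20 for independent tests, but these tests share libraries and are not independent. In 6 of the 7 it was WT CS replicate 2. That library had the lowest rho with GC content in WT CS (-0.743), a scaling factor of 0.716 and a listed sum of 938651 CPM. The part of these in the 6 values was not tested. In WT CS replicate 2 *Slit2* had 332 CPM (163 to 208 in the other CS libraries), *Epha6* 1187 (652 to 719), *Robo2* 1490.1 (787 to 965), *Unc5c* 792 (439 to 510.0), *Epha7* 471 (247 to 309) and *Epha3* 199 (96.2 to 112). The other was *Epha2* in WT SD replicate 9, with 2.24 CPM (0.992 to 1.52 in the others).

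The response to SD differed between *Mef2c* f/f and WT mice for 13 of 65 members by the interaction term, where 15.1% of all 13106 genes tested were called. The difference, on the log2 scale, was 0.97 for *Slit2*, 0.91 for *Unc5c*, 0.90 for *Epha7*, 0.89 for *Sema3a*, 0.78 for *Efna5*, 0.74 for *Unc5d*, 0.73 for *Robo2* and 0.42 for *Epha4*, and -1.16 for *Sema6b*, -0.96 for *Ephb4*, -0.80 for *Sema3b*, -0.78 for *Plxnb2* and -0.68 for *Sema4b*. None of the 13 was called in every run that left out 1 library. The difference ran with GC content over the members (rho -0.782). After the GC content and length correction 3 of the 13 were called, *Slit2*, *Unc5c* and *Epha7*, with 279 of 12631 genes called.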

How the results depend on the processing

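Of 38 members called from WT CS to SD, the count was 17 after the GC content and length correction and 20 without the 6 WT libraries of low listed sum, and 31 to 42 when 1 library was left out. Over all genes the calls went from 5826 to 2552 after that correction and to 2300 without the 6 libraries. The 17 calls from CS to RS became 10 with quantile normalization, 3 without a filter, 3 after the GC correction and 1 without the 6 libraries, and 0 to 24 when 1 library was left out. Over all genes the 2232 calls became 1725 with quantile normalization, 385 without a filter, 629 after the GC correction and 96 without the 6 libraries. From SD to RS the count was 2 by DESeq2 (54 of all genes), 1 after the GC correction (7 of all genes) and 0 to 1 with 1 library left out. For *Mef2c* f/f CS to SD it was 1 by DESeq2 (467 of all genes) and 0 to 1 with 1 left out, and for Mef2c-cKO CS to SD 0 to 0. From *Mef2c* f/f to Mef2c-cKO it was 10 by DESeq2 (2095 of all genes) and 1 to 6 with 1 left out in CS, and 7 to 22 with 1 left out in SD. The interaction of Mef2c-cKO and SD gave 0 to 0 with 1 left out, and that of *Mef2c* f/f against WT gave 22 with CPM as deposited, 7 with quantile normalization, 3 after the GC correction and 0 to 22 with 1 left out (0 without *Mef2c* f/f SD replicate 1 or 3, 1 without *Mef2c* f/f CS replicate 4). For all genes the interaction against WT gave 3426 with CPM as deposited, 1399 with quantile normalization and 279 after the GC correction. The GC correction turned the direction of *Efna3* (-0.0073), *Sema5b* (-0.13) and *Slit1* (-0.0605) from WT CS to SD and of *Slit1* (-0.0196) from CS to RS. The cause of these changes was not tested. Of 90 results for single members, DESeq2 and a pseudocount of 1 kept the call of 90, a pseudocount of 0.1 of 88, edgeR of 79, a filter at 5 CPM of the 76 that passed it, CPM as deposited of 73, no filter of 65, quantile normalization of 62 and the GC correction of 40. Of the 68 that use WT CS libraries, 30 were kept without the 6 libraries, 19 with the replicate block and 11 with the block and the GC correction.

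Whether samples with the same replicate number belong together could not be settled. The correlations of their deviations were -0.305 to 0.647 for WT CS and SD, 0.0541 to 0.661 for CS and RS and -0.729 to 0.355 for SD and RS. They were 0.04999 to 0.268 in *Mef2c* f/f and 0.0767 to 0.160 in Mef2c-cKO mice. The sample of the same number was the closest one for some, such as WT CS and SD replicate 1 (0.647) and Mef2c-cKO replicates 5 and 7. For others, such as WT CS and SD replicate 2 (-0.305), it was not. With the replicate number as a block, 2 members were called from WT CS to SD, 33 in the comparison of CS with RS and 0 in the interaction of *Mef2c* f/f against WT. Over all genes the block gave 287 of 12913, 4279 of 12752 and 0 of 13106 in these comparisons. With the replicate block and the GC correction the members' counts were 5, 9 and 0, and 1 for *Mef2c* f/f CS to SD, where 1032, 1526, 0 and 178 of all genes were called. In that setting *Epha4* (0.0072), *Sema5b* (-0.11), *Slit1* (-0.0690) and *Unc5a* (-0.0030) from CS to SD and *Slit1* (-0.00570) from CS to RS turned direction. No paired analysis was possible for *Mef2c* f/f against Mef2c-cKO because they share no numbers within a condition.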

Other observations

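Where 24.6% of all genes were higher and 20.5% lower from WT CS to SD, the calls in the marker lists not given above were 1 higher and 2 lower of 10 excitatory neuron markers, 2 and 1 of 10 inhibitory neuron, 4 and 0 of 10 astrocyte, 2 and 3 of 10 oligodendrocyte, 2 and 1 of 10 microglia and macrophage, 1 and 2 of 9 endothelial, 3 and 1 of 8 pericyte and smooth muscle, 0 and 1 of 2 choroid plexus, 2 and 0 of 5 striatal neuron and 1 and 0 of 4 hindbrain and thalamus markers tested.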
